A study of Homo sapiens with 6 samples.

Results

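PSPC1 and other RNA-binding proteins of the paraspeckle were examined in the human renal cell carcinoma line 786-O, after ERCC6L, a DNA translocase of anaphase chromatin threads (also known as PICH), had been reduced by RNA interference. The genes listed were PSPC1, SFPQ, NONO, MATR3, RBM14 and NEAT1, and a probe set was taken when the platform annotation gave it 1 of these symbols and no other. This gave 22 probe sets of 4 genes (PSPC1, NONO, MATR3 and RBM14), out of 44988 probe sets with 1 symbol for 18132 genes. PSPC1 had 5 probe sets, NONO 6, MATR3 8 and RBM14 3. SFPQ and NEAT1 had 0 under this rule and are not analysed here. The 2 probe sets annotated with SFPQ carry the symbol ADAD2-AS1 as well. The set was chosen because PSPC1 probe sets moved in both directions between these same arrays, so all differences of the 4 genes are given as a description, without p-values.

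One group of cells carried a short hairpin RNA against ERCC6L (shERCC6L, 3 arrays) and the controls a negative control hairpin (shNC, 3 arrays). Both hairpins were delivered by lentivirus, into cells grown in RPMI medium with fetal bovine serum. Neither the number of hairpins nor the promoter that drives them is given in the labels. Whether replicates came from different cultures is not stated, and p-values therefore reflect only the spread between these arrays, which may be technical.

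Paraspeckles are nuclear bodies built on the long noncoding RNA NEAT1, and they hold edited and other retained RNAs as well as RNA-binding proteins. PSPC1, NONO and SFPQ form a family with paired RNA recognition motifs and a coiled coil, and they work as dimers with one another. RBM14 is a transcriptional coactivator with a prion-like domain that takes part in paraspeckle assembly, and MATR3 is a nuclear matrix protein with RNA recognition motifs and zinc fingers that binds many pre-mRNAs.

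In the RefSeq gene table (GRCh38.p14) PSPC1 lies on chromosome 13 from 19671205 to 19782945, with 9 coding and 8 noncoding transcripts. NONO lies on chromosome X from 71283635 to 71301168, MATR3 on chromosome 5 from 139274101 to 139331677 and RBM14 on chromosome 11 from 66616630 to 66629934. The 4 genes have 5 start-site windows of 300 bases in the RefSeq promoter table of that build (250 bases before the start and 50 after), MATR3 having 2. The windows of PSPC1 (chr13:19782896-19783195, minus strand) and NONO (chrX:71283385-71283684, plus strand) are shown because these are the family's measured members, each with a signal that was higher on most of its probe sets in shERCC6L cells. Capitals mark the motif GCCATNTT, the form bound by the factor YY1, which was searched on both strands after the sequences had been read.
PSPC1: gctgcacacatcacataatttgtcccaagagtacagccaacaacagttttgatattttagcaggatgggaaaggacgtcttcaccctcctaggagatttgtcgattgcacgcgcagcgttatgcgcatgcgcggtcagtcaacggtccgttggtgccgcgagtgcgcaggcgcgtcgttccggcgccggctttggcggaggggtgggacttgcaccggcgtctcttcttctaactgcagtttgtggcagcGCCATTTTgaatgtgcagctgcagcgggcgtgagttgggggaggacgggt
NONO: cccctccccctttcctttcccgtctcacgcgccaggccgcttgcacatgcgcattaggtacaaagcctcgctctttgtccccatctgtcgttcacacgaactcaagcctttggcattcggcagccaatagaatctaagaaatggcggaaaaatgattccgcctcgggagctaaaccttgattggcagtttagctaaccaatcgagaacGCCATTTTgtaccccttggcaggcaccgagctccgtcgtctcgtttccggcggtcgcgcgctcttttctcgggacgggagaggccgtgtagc
Each of these windows held 1 match, beginning at base 251 for PSPC1, which is its annotated first transcribed base, and at base 209 for NONO. The RBM14 window and both MATR3 windows held 0 matches, and 2310 of 35116 windows (6.58%) in the table held at least 1. The windows and the motif were chosen after the values and sequences had been seen, so the share over all windows is no test of these matches. A match is a string of letters and not a measured binding site. The RBM14 window, from 66616380 to 66616679, is also that of the read-through gene RBM14-RBM4, whose interval takes in all of RBM14. RBM14 probe sets may therefore read both transcripts.

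The ERCC6L transcript itself, on its 1 probe set, gave signals of 97.6, 97.5 and 97.8 on the shERCC6L arrays and 239.9, 244.3 and 261.4 on the shNC arrays, with the shERCC6L mean at 39.3% of the shNC mean (log2 difference -1.22 ± 0.04, SE, n = 3 per group; limma adjusted p = 4.6e-07). Array medians were 60.02 to 61.2 in shERCC6L and 60.4 to 61.5 in shNC. Of 8 renal epithelial markers 6 were measured, and their summed signal was 8253 to 8531 on shERCC6L arrays and 8379 to 8477 on shNC arrays. Among them PAX8 rose by 0.34 and CDH6 fell by 0.50 (limma adjusted p = 0.00021 and 1.3e-05). The 4 immune markers measured summed to 52.4 to 56.5 on shERCC6L arrays and 51.6 to 59.4 on shNC arrays. PTPRC, which marks all leukocytes, averaged 7.21 ± 0.541 in shERCC6L and 7.31 ± 0.155 in shNC (SD, n = 3 each). The 4 endothelial markers summed to 203.3 to 211.4 on shERCC6L arrays and 208.0 to 217.5 on shNC arrays, and 0 of the 4 immune and 0 of the 4 endothelial genes passed in either direction in limma, with 0 at an unadjusted p under 0.05.

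PSPC1, the family member named for the paraspeckle, gave clearly different answers from its 5 probe sets. Differences are given as shERCC6L minus shNC of log2(signal + 16), with the SE of a linear model fitted to all 49293 probe sets other than controls. The pseudocount of 16 understates the change of dim probe sets. Probe set 11725028_s_at read 510.02, 526.3 and 535.0 on the shERCC6L arrays and 234.0, 237.6 and 241.7 on the shNC arrays. The groups lay far apart, and the difference of 1.09 ± 0.03 (log2, SE, n = 3 per group) is 2.13-fold. Probe set 11725027_s_at read 280.9, 285.3 and 279.2 on the shERCC6L arrays and 155.7, 152.3 and 163.4 on the shNC arrays. It was higher on every shERCC6L array as well, by 0.78 ± 0.04 or 1.72-fold. In bulk RNA, more cells of one kind and more RNA per cell cannot be told apart.

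Probe set 11753951_s_at ran the other way. It read 57.0, 51.3 and 50.1 on the shERCC6L arrays and 57.2, 63.3 and 63.6 on the shNC arrays, a difference of -0.17 ± 0.05. The groups did not overlap, but the highest shERCC6L array and the lowest shNC array lay only 0.213 signal units apart. Its mean level stood at the 48.5th percentile of all probe sets, close to the median signal of 61.5. This was the PSPC1 value just past the threshold of an adjusted p of 0.05 that defined movement in both directions. It missed that threshold without shERCC6L replicate 2 (-0.16) or 3 (-0.14) and without shNC replicate 2 (-0.15) or 3 (-0.15), with a pseudocount of 64 (-0.10) and with the replicate number as a block (-0.17). It stayed past it without shERCC6L replicate 1 (-0.21) or shNC replicate 1 (-0.21).

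The remaining PSPC1 probe sets were dim. Probe set 11758926_x_at read 26.7, 25.8 and 22.2 on the shERCC6L arrays and 15.2, 18.2 and 16.4 on the shNC arrays, a difference of 0.33 ± 0.05 with no overlap. Its mean signal in shERCC6L was 150.2% of that in shNC, larger than the 1.25-fold that the log2(signal + 16) scale gives. Probe set 11758925_at, the 1 of the 5 that did not pass the threshold, read 9.86, 10.7 and 10.2 on the shERCC6L arrays and 8.78, 9.69 and 10.2 on the shNC arrays. Its groups overlapped and its difference was 0.04 ± 0.04. These probe sets and 11725027_s_at have the same expressed sequence tag as their source in the platform annotation. Their differences were 0.33, 0.04 and 0.78, and with a pseudocount of 1 they were 0.56, 0.09 and 0.84. Part of the gap therefore comes from the scale, and a signal as dim as that of 11758925_at can show little change. The suffix x_at marks a probe set in which some probes may match other transcripts, and s_at one whose probes match several transcripts.

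**Figure D1:**
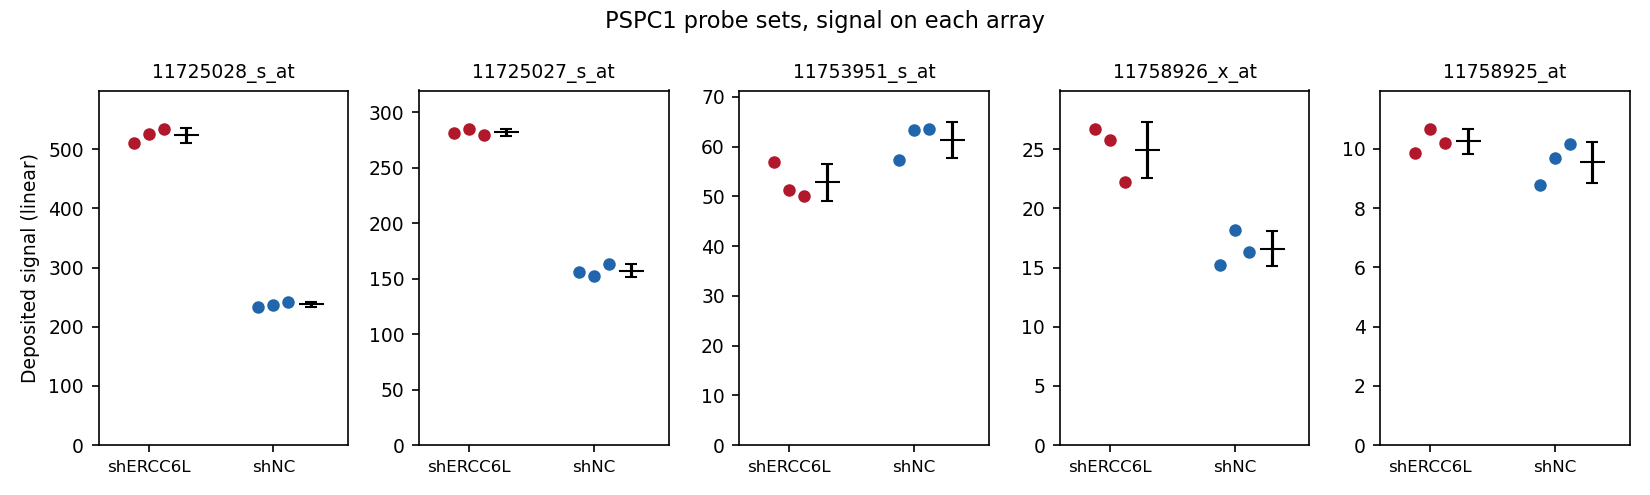
Signal on each array (linear axis from 0, a separate scale per panel) for the 5 PSPC1 probe sets, with shERCC6L in red left of shNC in blue and the mean ± SD of 3 arrays in black. Probe sets 11725028_s_at, 11725027_s_at and 11758926_x_at lie higher in shERCC6L, 11753951_s_at lower with points at 57.0 and 57.2 nearly touching, and 11758925_at overlaps.

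The probe sets were also compared within each array. The log2 value of 11725028_s_at minus that of 11753951_s_at was 2.85, 3.01 and 3.06 on the shERCC6L arrays and 1.77, 1.68 and 1.69 on the shNC arrays, a shift of 1.26. The same subtraction between 11725028_s_at and 11725027_s_at gave 0.83, 0.85 and 0.90 on the shERCC6L arrays and 0.54, 0.59 and 0.52 on the shNC arrays, a shift of 0.31. So the brighter probe sets, both higher, also changed by unequal amounts. With the 5 probe sets averaged the PSPC1 difference was 0.41.

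Disagreement of this size was uncommon on the array. The highest and the lowest PSPC1 differences lay 1.26 apart on the log2 scale, and among the 988 genes with 5 probe sets the median gap was 0.17, with 5 genes, PSPC1 included, at or above 1.26. Of these 988 genes 33 (3.34%) had at least 1 probe set called higher and 1 called lower, as had 156 of 11734 genes (1.33%) with 2 or more probe sets. The genes compared were not matched to PSPC1 in signal level or in size of change. PSPC1 was picked for this property, so its place in that distribution is no test.

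**Figure D2:**
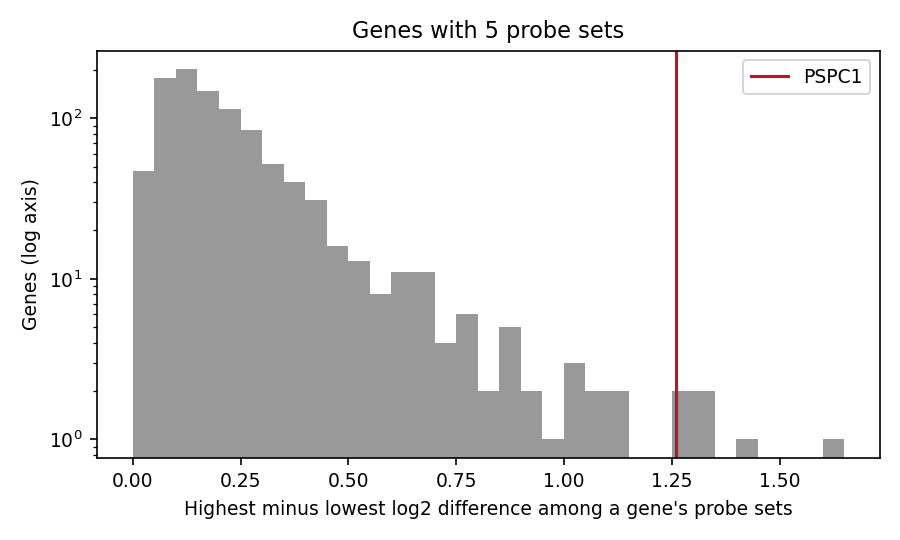
Gap between the highest and the lowest log2 difference (shERCC6L minus shNC) among the probe sets of each of 988 genes with 5 probe sets, as a histogram with a log count axis. The red line marks PSPC1 at 1.26, far right of the median of 0.17.

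Genes overlapping PSPC1 and pseudogenes named after the member genes were looked up. The gene MPHOSPH8, which encodes a reader of histone methylation, runs on the plus strand, opposite to PSPC1, and overlaps its interval by 2237 bases. MPHOSPH8 rose on 2 of its 5 probe sets, by 0.21 ± 0.05 on 11734842_at and 0.19 ± 0.06 on 11734843_x_at (limma adjusted p = 0.0092 and 0.033), and its other 3 lay between -0.01 and 0.05 and did not pass. RefSeq lists the pseudogenes PSPC1P1 and PSPC1P2, both on chromosome 13, NONOP1 and NONOP2 for NONO, and MATR3P1 and MATR3P3 for MATR3. The annotation gave 0 probe sets to any of them, and their part in the signals was not tested.

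By distance over the 6 arrays, after subtracting each probe set's mean log2 value, the patterns nearest to 11725028_s_at among 22686 probe sets at or above the median level were those of NT5E (distance 0.06), ARL2BP (0.10), EREG (0.11), PPIF (0.11) and TMEM158 (0.11). Their differences ran from 1.02 for PPIF to 1.16 for EREG. NT5E encodes the ecto-enzyme CD73 and read 635.6, 648.0 and 662.6 on the shERCC6L arrays and 282.9, 303.2 and 295.5 on the shNC arrays. Nearest to 11753951_s_at were probe sets of APPL1 (distance 0.04), BTN3A3 (0.05), C19orf12 (0.05), PPM1L (0.06) and TDG (0.06), with differences from -0.21 to -0.12. A likeness over 6 arrays mostly reflects the step between the groups.

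NONO, the family member that pairs with PSPC1 and SFPQ, was slightly higher on all 6 probe sets, by 0.07 to 0.15. Probe set 11718414_s_at read 3595, 3589 and 3667 on the shERCC6L arrays and 3224, 3263 and 3289 on the shNC arrays, a difference of 0.15 ± 0.03 or 1.11-fold. Probe set 200057_PM_s_at read 5815, 5774 and 5862 on the shERCC6L arrays and 5296, 5242 and 5343 on the shNC arrays, a difference of 0.14 ± 0.03. On these and on 3 others every shERCC6L array lay above every shNC array, and only 11725985_s_at overlapped. Its values were 3142, 3094 and 3343 on the shERCC6L arrays and 3010, 3171 and 2919 on the shNC arrays.

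NONO probe sets spanned 0.08 on the log2 scale, against a median of 0.19 among the 498 genes with 6 probe sets. Probe set 11725986_s_at read 2723, 2953 and 2978 on the shERCC6L arrays and 2544, 2650 and 2601 on the shNC arrays, a difference of 0.15 ± 0.04. It missed the threshold without shERCC6L replicate 2 or 3, without shNC replicate 1 or 3 and with a pseudocount of 1, with differences between 0.13 and 0.19 over all alternatives. All 6 NONO differences stayed above 0 with quantile normalization and with median centring.

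MATR3, the nuclear matrix protein, was lower by a small amount on 7 of 8 probe sets, with differences from -0.13 to 0.00 and a median of -0.09. Probe set 11754358_x_at read 1761, 1726 and 1789 on the shERCC6L arrays and 1903, 1960.3 and 1907 on the shNC arrays, a difference of -0.13 ± 0.03. Probe set 11749416_a_at read 1016, 987.2 and 996.5 on the shERCC6L arrays and 1113, 1093 and 1075 on the shNC arrays, also -0.13 ± 0.03. On these probe sets and on the brightest, 11758663_s_at, every shERCC6L array lay below every shNC array.

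The brightest MATR3 probe set read 2989, 3007 and 3156 on the shERCC6L arrays and 3195, 3261 and 3320.1 on the shNC arrays, a difference of -0.09 ± 0.04. The other 5 overlapped, and the dimmest pair, 11759018_at and 11759019_x_at, which share a source sequence, differed by 0.00 and -0.02. Probe set 11754358_x_at missed the threshold without shERCC6L replicate 2 or shNC replicate 2, and 11749416_a_at without shERCC6L replicate 2 or shNC replicate 1. With a pseudocount of 1 both missed it, each at -0.13, and 0 MATR3 probe sets were called. The MATR3 gene interval also holds the small nucleolar RNA host gene SNHG4, with 0 probe sets of its own. It holds the small nucleolar RNA SNORA74A too, with 2 probe sets, whose values are not given here.

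RBM14, the coactivator that takes part in paraspeckle assembly, was higher on all 3 probe sets, by 0.05 to 0.22. Probe set 11751756_a_at read 369.3, 377.5 and 389.3 on the shERCC6L arrays and 330.0, 305.2 and 331.5 on the shNC arrays, a difference of 0.22 ± 0.04 or 1.17-fold with no overlap. Probe set 11745258_s_at read 512.3, 482.8 and 487.2 on the shERCC6L arrays and 470.8, 463.2 and 461.1 on the shNC arrays, a difference of 0.08 ± 0.04. The third, 11745257_a_at, read 57.0, 73.8 and 60.4 on the shERCC6L arrays and 57.0, 66.0 and 59.8 on the shNC arrays and overlapped. Its spread within groups was larger than its difference of 0.05 ± 0.08.

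**Figure D3:**
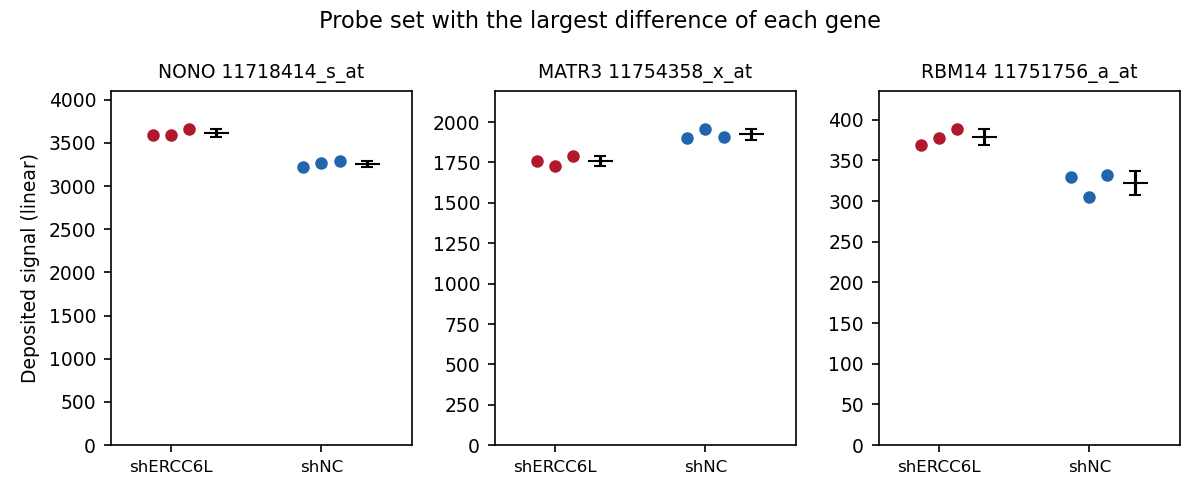
Signal on each array (linear axis from 0, a separate scale per panel) for the probe set with the largest absolute difference of NONO, MATR3 and RBM14, with shERCC6L in red left of shNC in blue and the mean ± SD of 3 arrays in black. The steps are small beside the signal: 1.11-fold higher for NONO, a log2 difference of -0.13 for MATR3 and 1.17-fold higher for RBM14.

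Of the 22 probe sets, 7 were called higher (PSPC1 3, NONO 3, RBM14 1) and 3 lower (MATR3 2, PSPC1 1) at an adjusted p of 0.05 over the whole table. Over all 49293 probe sets 16.8% were called higher and 11.9% lower. The groups did not overlap for 10 probe sets that were higher and 4 that were lower, where the table as a whole gave 22.3% and 18.7%. The contrast was used to choose these genes, so nothing is read from the counts. The median difference over the 22 was 0.06, and over all probe sets -0.01. Apart from PSPC1 no difference of the 4 genes exceeded 0.22 in size, and 19 of the 22 probe sets lay at or above the median level.

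**Figure D4:**
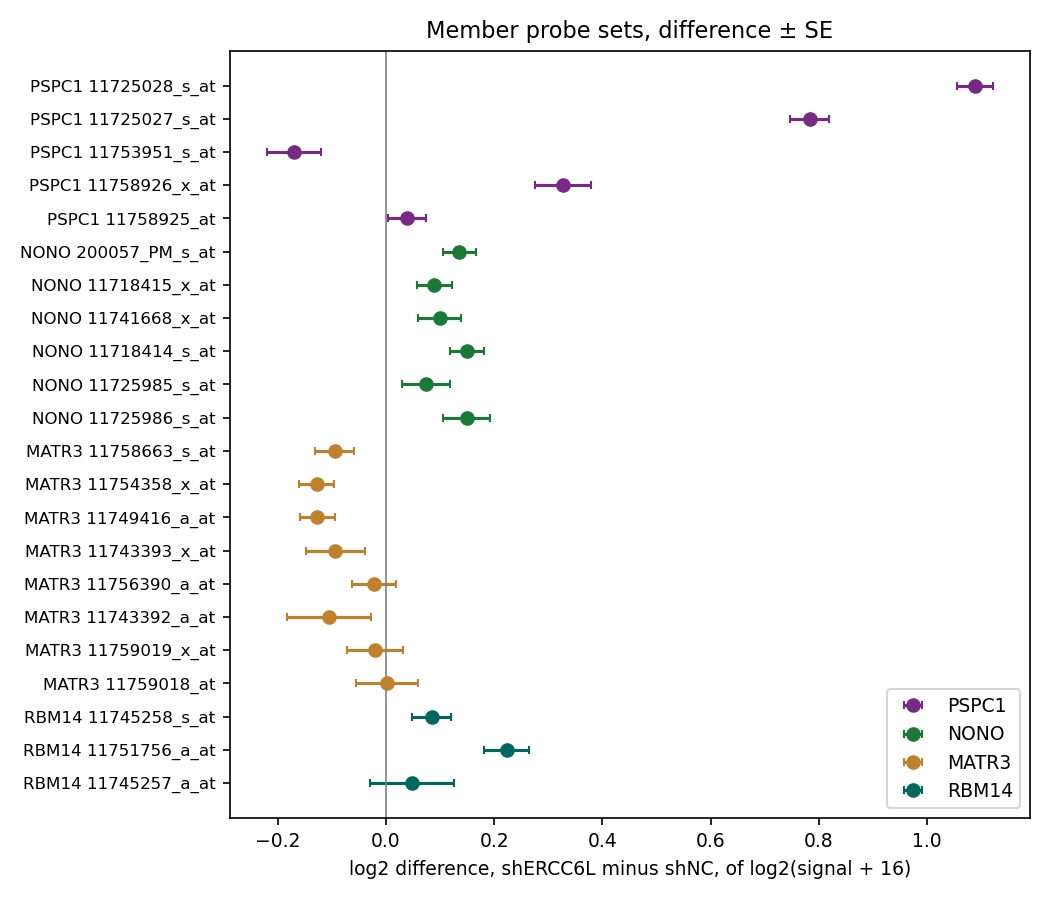
Difference in log2(signal + 16), shERCC6L minus shNC, with its SE for the 22 probe sets, grouped by gene and ordered by signal within a gene. PSPC1 runs from -0.17 to 1.09, while NONO stays between 0.07 and 0.15, MATR3 between -0.13 and 0.00 and RBM14 between 0.05 and 0.22.

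Other genes of the pathway were compared on each gene's brightest probe set. Over all genes 17.8% of brightest probe sets were called higher and 12.9% lower. Of 29 other proteins reported in paraspeckles and measured here, 7 rose, 4 fell and 18 did not pass, with a median difference of 0.03. CIRBP, the cold-inducible RNA-binding protein, fell by 0.52 ± 0.03 (limma adjusted p = 7.2e-06) on its brightest probe set and also passed as lower on its other 2. FAM98A rose by 0.38 ± 0.04 (limma adjusted p = 0.00024) and TOE1, an exonuclease that trims small nuclear RNAs, by 0.26 ± 0.03 (limma adjusted p = 0.00034), each on all 4 probe sets.

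The other genes that fell were NUDT21, TAF15 (by 0.30 ± 0.04), an RNA-binding protein related to EWSR1, and ZC3H6 (by 0.42 ± 0.05). TAF15 was called lower on all 3 of its probe sets and ZC3H6 on 1 of 2, the other lying at -0.02. The rest that rose were HNRNPH3, RBM12, TARDBP, CPSF7 and EWSR1, by 0.12 to 0.22. HNRNPH3 was called higher on 1 of its 3 probe sets, CPSF7 on 1 of 2, EWSR1 on 2 of 3, and RBM12 and TARDBP on all. TAF15, ZC3H6 and these were named after their values had been seen. HNRNPK, which steers NEAT1 towards its long form, and DAZAP1 did not pass, at -0.12 and 0.05 on their brightest probe sets. None of the 6 HNRNPK probe sets was called, and their signs differed, with 11739211_x_at at 0.11. The number of genes that rose was 3 without shERCC6L replicate 3 and 4 without shNC replicate 1 or 3. Over all genes the shares were the 17.8% and 12.9% given above.

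NUDT21, the small subunit of cleavage factor I, which favours the short form of NEAT1 and sets the poly(A) site of many mRNAs, also disagreed between probe sets. Its brightest, 11756899_a_at, read 709.1, 685.2 and 783.0 on the shERCC6L arrays and 1059, 1228 and 1097 on the shNC arrays. It fell by 0.62 ± 0.07 (limma adjusted p = 0.00016), without overlap. Probe set 11718402_a_at read 819.0, 834.8 and 854.6 on the shERCC6L arrays and 735.5, 749.0 and 721.1 on the shNC arrays and rose by 0.18 ± 0.03 (limma adjusted p = 0.0039). The third, at -0.07 ± 0.05, did not pass. ZNF24, a zinc finger protein, was the other gene of this list with calls in both directions.

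Among 20 cleavage and polyadenylation factors, all measured, 10 rose, 1 fell and 9 did not pass. Their median difference was 0.14, beside -0.01 over the brightest probe sets of all genes, of which 17.8% were called higher and 12.9% lower. CPSF3, the endonuclease that cuts the pre-mRNA, rose by 0.45 ± 0.04 (limma adjusted p = 3.6e-05), CPSF2 by 0.36 ± 0.05 (limma adjusted p = 0.00045) and CSTF2 by 0.29 ± 0.04 (limma adjusted p = 0.00043). CSTF2 was called higher on 1 of its 2 probe sets. The poly(A) polymerase PAPOLA, added after its values had been seen, rose by 0.20 ± 0.04. The member that fell was NUDT21. On their brightest probe sets its partners in cleavage factor I lay at 0.01 for CPSF6, which did not pass, and 0.14 for CPSF7, which rose. However, 1 of the 5 CPSF6 probe sets was called lower, and the lowest CPSF6 difference was -0.31. CPSF7 was called higher on 1 of its 2 probe sets. NUDT21, CPSF6 and CPSF7 stand in this list and in the one before.

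Of 14 genes of nuclear RNA retention and other nuclear bodies 13 were measured, of which 5 rose, 2 fell and 6 did not pass, at a median of 0.08. The shares over all genes were 17.8% higher and 12.9% lower. PML, the scaffold of PML bodies, rose by 0.47 ± 0.05 (limma adjusted p = 0.0001) on its brightest probe set. Of its 10 probe sets 4 were called higher, by 0.30 to 0.61, and the other 6 lay between -0.09 and 0.05 and did not pass, so that the mean over all 10 gave 0.17 (limma adjusted p = 0.0012). COIL, the marker of Cajal bodies, rose by 0.29 ± 0.06 (0.0051 by the same test) and SON, a core protein of nuclear speckles, by 0.23 ± 0.04 (0.0048 likewise). The other core speckle protein, SRRM2, fell by 0.23 ± 0.04 (limma adjusted p = 0.0028), with 3 of its 5 probe sets called lower. ADARB1, an adenosine deaminase that edits double-stranded RNA, fell by 0.46 ± 0.05 (limma adjusted p = 0.00021), and none of its 4 other probe sets passed. MALAT1, the noncoding RNA of nuclear speckles and genomic neighbour of NEAT1, did not pass on its brightest probe set, at 0.01 ± 0.06. Of the 3 MALAT1 probe sets 1 was called higher. Without shERCC6L replicate 2 the number that rose was 3.

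Of 18 other hnRNP genes 17 were measured, of which 5 rose, 2 fell and 10 did not pass, at a median of 0.05. HNRNPUL2 rose by 0.37 ± 0.05 (limma adjusted p = 0.00057), HNRNPAB by 0.32 ± 0.03 (0.00013 by the same test) and PTBP2, a splicing repressor, by 0.18 ± 0.04 (0.0095 likewise). PTBP2 was called higher on 2 of its 3 probe sets. PCBP2 fell by 0.25 ± 0.03 (limma adjusted p = 0.00066), with 5 of its 8 probe sets called lower and 1 higher. HNRNPA0 fell by 0.13 ± 0.04 (limma adjusted p = 0.027), and it did not pass without shERCC6L replicate 1 or 2 or without any 1 of the shNC replicates, at adjusted p-values of 0.053 to 0.1. Of the 2 HNRNPA0 probe sets 1 was called lower. The number of other hnRNP genes that fell was 1 without shERCC6L replicate 1 or 2 or shNC replicate 2 or 3. Over the 4 lists together, 75 genes were measured, of which 26 rose, 8 fell and 41 did not pass. Over all genes 17.8% of brightest probe sets were called higher and 12.9% lower. The lists were chosen with earlier results of these data known, so nothing is read from these counts.

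**Figure D5:**
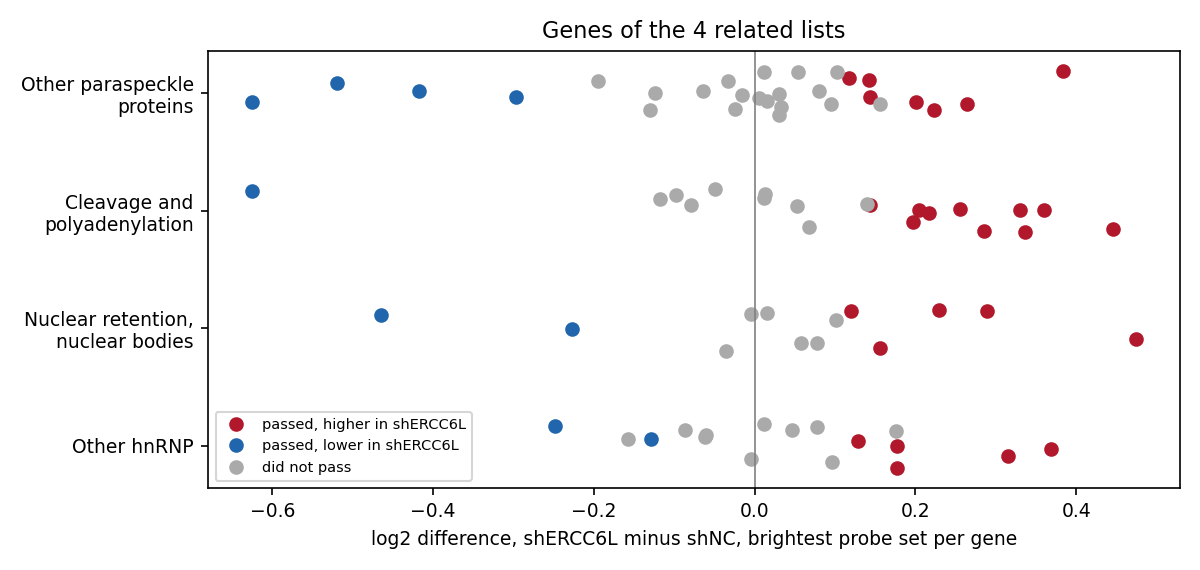
Difference in log2(signal + 16), shERCC6L minus shNC, on the brightest probe set of each gene in the 4 related lists, 1 point per gene with vertical scatter for legibility only. Red points passed as higher, blue points as lower and grey points did not pass. NUDT21, at -0.62, is the lowest point of the upper 2 rows, and CPSF3, at 0.45, is the highest of the second.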

How the data were processed

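RNA from 6 samples was hybridised to single-channel Affymetrix arrays, 3 per group, as biotin-labelled cRNA. The authors deposited linear signal intensities, 1 per probe set and array, made with Affymetrix Expression Console per the submitters' processing notes. The version and the normalization are not stated there. The values carry no detection calls, and the background level is therefore unknown.

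Of 49395 probe sets, 102 Affymetrix controls were left out. In GEO's platform annotation 44988 of the rest had 1 gene symbol, 1832 several and 2473 none. Signals were transformed to log2(signal + 16) and the groups were fitted on all 49293 probe sets with limma 3.58.1 (R 4.3.3), by a 2-sided moderated test of lmFit and eBayes on 4 residual and 4.47 prior degrees of freedom. Benjamini-Hochberg adjustment ran over the whole table, and an adjusted p under 0.05 was a call. The fit was tested on simulated data. Precision is limited by the small number of arrays.

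The members and gene lists were chosen with earlier results of these data known. The named genes comprised all member probe sets, ERCC6L, MPHOSPH8 for its position, the 5 nearest patterns, the markers, and from each list the 4 smallest p-values and the 2 largest rises and falls past the threshold. Alternatives were quantile normalization, median centring, pseudocounts of 1 and 64, filters at the lower quartile and at the median, array weights, a robust fit with an intensity trend, a replicate block, leaving out each array, the brightest probe set or the mean of probe sets per gene, and, chosen after seeing the data, omitting x_at probe sets. Scanner files were not used here.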

Additional observations from a re-analysis of the deposited data

How the results depend on the processing

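Over 18 alternatives 0 called differences changed sign. Of 330 member differences recomputed, 7 did, to values between -0.05 and 0.03, all for 4 probe sets of MATR3 and RBM14 that did not pass and all on leaving out 1 array. The calls over all probe sets, 8296 higher and 5863 lower, stayed within a factor of 1.5, at 6872 to 7688 higher and 4711 to 5311 lower when 1 array was left out. With a replicate block they were 8031 and 5665, and 137 genes in place of 156 had calls in both directions. Deviations from the group means correlated at 0.22, -0.152 and -0.033 between same-numbered arrays of the groups. These few values cannot settle whether the shared replicate numbers pair the arrays. PSPC1 11753951_s_at missed the threshold with the block, at -0.17. Genes with calls in both directions numbered 107 to 128 when 1 array was left out. Leaving out 1 array gave 6 to 7 member probe sets called higher and 0 to 3 lower, with 0 lower without shERCC6L replicate 2 and 1 without shNC replicate 2. Other paraspeckle proteins that rose numbered 3 to 6, nuclear body genes that rose 3 to 5, and other hnRNP genes that fell 1 to 3. With a pseudocount of 1 there were 1 lower member probe set (of PSPC1), 4 other paraspeckle proteins that rose and 1 other hnRNP gene that fell, and HNRNPA0 had an adjusted p of 0.073 in limma. With quantile normalization 2 cleavage and polyadenylation factors and 4 other hnRNP genes fell. On the brightest probe set per gene 2 of the 4 member genes were called higher and 0 lower, and with probe sets averaged 3 and 0. Both settings count genes and test fewer features, so these counts are not comparable with those of probe sets. Without x_at probe sets 6 were higher and 2 lower, of 16. Of the member differences, 9 moved by more than the spread between replicates, 7 of them from another pseudocount.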
